A study of Homo sapiens with 6 samples.

Results

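Granins are acidic proteins that are packed together with prohormones into the dense-core granules of neuroendocrine cells, and several of them are themselves cut into active peptides. The prohormone convertases PCSK1 and PCSK2 cut at pairs of basic residues inside the maturing granule, carboxypeptidase E (CPE) then removes the exposed basic residues, and proSAAS (PCSK1N) and 7B2 (SCG5) act on PCSK1 and PCSK2 respectively. In the pancreas this machinery belongs to the islet cells, not to the duct. The 10 genes examined here were the granins VGF, SCG2, SCG3, CHGA and CHGB, the convertase partners SCG5 and PCSK1N, the convertases PCSK1 and PCSK2, and CPE, picked by gene symbol from the 58735 genes of the deposited table. VGF and SCG2 entered the set because they were among the strongest rises in this comparison, so their values are given as a description without a test. The other 8 were added for their function, but with earlier results of these data known, so their tests were not blind to these data.

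The study silenced METTL16, an RNA N6-adenosine methyltransferase, in the PANC-1 line, which was established from a human ductal tumour of the pancreas and kept in DMEM with serum. RNA-seq was run on 3 biological replicates with control siRNA (si-NC) and 3 with siRNA against METTL16 (si-METTL16). According to the methods, the sequenced cells carried the siRNAs by stable transfection, and stable knockdown cells were in general selected with puromycin, whereas the labels mention transfection only. Another label calls the control libraries wild type. The number in the si-METTL16 titles is also the number of 3 listed METTL16 siRNAs, and whether these libraries shared a single siRNA was not given in the sources used here. The libraries held between 15725298 and 18054436 counts, so that 3 counts amounted to between 0.166 and 0.191 CPM, the count scaled to the normalised library size. METTL16 had 1546, 1641 and 1764 counts in si-NC and 571, 528 and 627 in si-METTL16 libraries, and its log2 fold change (log2FC, si-METTL16 over si-NC) was -1.48, with a standard error (SE) of 0.07. Ductal keratins KRT8 and KRT18 were abundant (151 and 175 mean FPKM in si-NC), whereas the ductal gene CFTR had 2 counts over all libraries.

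VGF and SCG2, picked for their rise, were at 8.21-fold and 4.61-fold of the control level after silencing. SCG3, tested only because of its silenced libraries, was at 6.97-fold. CHGB, which was not picked for its rise, was at 2.89-fold. PCSK1N fell to 57.7% of control. The neuroendocrine convertases PCSK1 and PCSK2, and CHGA, stayed at or near 0 counts in nearly every library of each group. Since these are bulk libraries, more cells expressing a gene and more RNA per cell cannot be told apart.

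Promoter sequence was available for 8 of the 10 genes in the RefSeq table (GRCh38.p14, windows from 250 bases before to 50 bases after a start site). SCG2 and CHGB had no entry. The palindromic cAMP response element TGACGTCA, the recognition sequence of CREB family factors, was searched on both strands because VGF and CHGA are textbook cAMP-responsive genes, together with the AP-1 site TGANTCA, the E-box CACGTG and the TATA box letters TATAAA. None of these motifs contains another. The cAMP response element was in a window of VGF, CHGA and PCSK1, that is in 3 of the 8 genes, which have 10 windows. It was in 1.85% of all 35116 promoter windows. Since it was searched because of VGF and CHGA, these shares carry no statement about the set. It lay at -79 to -72 in VGF, at -54 to -47 in CHGA and at -77 to -70 in 1 of the PCSK1 windows, counted from the RefSeq start site. VGF also had an E-box at -54 to -49 (7.26% of all windows). At -32 to -27 it had the letters TATAAA on the reverse strand, printed as TTTATA (11.5% of all windows). Only exact letters were counted, so variant TATA sequences on either strand were not. The other PCSK1 window had a TATA box at -28 to -23, and PCSK1N an AP-1 site at -246 to -240 (7.71% of all windows). No other window of the 8 genes held any of these letters. The 3 windows with the element are shown with that of SCG3, which has none, because VGF and SCG3 were expressed and higher after silencing while CHGA and PCSK1 were near 0. Capitals mark the motif letters, and each sequence runs 5′ to 3′ on the strand of its gene.
VGF chr7:101165520-101165819 (- strand): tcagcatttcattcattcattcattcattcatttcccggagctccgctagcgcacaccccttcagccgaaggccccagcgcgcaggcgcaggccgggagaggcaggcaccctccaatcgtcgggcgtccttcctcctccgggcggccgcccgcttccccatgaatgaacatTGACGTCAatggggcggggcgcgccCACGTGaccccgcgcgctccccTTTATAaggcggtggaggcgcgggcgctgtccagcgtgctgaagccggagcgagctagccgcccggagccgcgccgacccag
CHGA chr14:92922900-92923199 (+ strand): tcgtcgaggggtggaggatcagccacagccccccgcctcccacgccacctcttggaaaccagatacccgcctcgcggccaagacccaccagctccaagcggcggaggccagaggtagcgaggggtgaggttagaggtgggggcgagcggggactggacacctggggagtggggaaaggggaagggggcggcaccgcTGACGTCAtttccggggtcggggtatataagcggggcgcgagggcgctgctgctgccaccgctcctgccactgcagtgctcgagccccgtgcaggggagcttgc
PCSK1 chr5:96433199-96433498 (- strand): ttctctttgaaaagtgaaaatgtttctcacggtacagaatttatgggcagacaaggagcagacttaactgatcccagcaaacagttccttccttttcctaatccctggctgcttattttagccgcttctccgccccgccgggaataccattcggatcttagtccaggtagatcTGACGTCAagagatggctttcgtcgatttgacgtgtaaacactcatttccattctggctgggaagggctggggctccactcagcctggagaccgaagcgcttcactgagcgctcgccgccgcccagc
SCG3 chr15:51681253-51681552 (+ strand): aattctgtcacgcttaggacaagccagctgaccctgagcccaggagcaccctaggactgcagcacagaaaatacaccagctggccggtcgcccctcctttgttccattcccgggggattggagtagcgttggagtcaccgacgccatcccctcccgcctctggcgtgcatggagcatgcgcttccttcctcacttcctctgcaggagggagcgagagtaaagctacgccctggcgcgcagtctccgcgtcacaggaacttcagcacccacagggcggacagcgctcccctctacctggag

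VGF (ENSG00000128564, chromosome 7 from 101162509 to 101165593 in the deposited table, minus strand) encodes a nerve growth factor inducible granin that yields several neuropeptides. Its deposited FPKM, the count scaled by gene length and library total, was 0.713, 1.00 and 0.646 in the si-NC libraries (replicates 1, 2 and 3, the order used throughout), whereas the si-METTL16 libraries had 8.60, 4.11 and 6.40. The counts behind them were 80, 113 and 75 against 955, 431 and 771. The lowest si-METTL16 library lay above the highest si-NC library, and the si-METTL16 libraries differed among themselves by 2.11 times in CPM. The log2FC fitted by edgeR was 3.04 (SE 0.31), a description since VGF was picked for it. Among all tested genes, 12 had a log2FC at or above that of VGF, VGF included. Among the better expressed genes past the threshold with groups that did not overlap, VGF ranked 1 and SCG2 ranked 4. SCG2 stood just above UBE2C at 2.16 and OGFR at 2.09. These ranks restate the reason for the choice of VGF and SCG2 and are no test of them.

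SCG2 (ENSG00000171951, chromosome 2 from 223596940 to 223602503, minus strand) encodes secretogranin II, the precursor of secretoneurin. Its FPKM was 3.35, 2.75 and 2.40 in si-NC and 12.8, 12.9 and 12.9 in si-METTL16 libraries, so the silenced libraries were nearly equal and all lay above the controls. The coefficient of variation of its CPM was 17.1% in si-NC and 0.240% in si-METTL16, against 24.2% and 35.6% for VGF. From 3 libraries, a value so far below the common biological coefficient of variation of 16.5% is no measure of tighter expression. The fitted log2FC was 2.20 (SE 0.13), again a description. SCG2 had the highest deposited FPKM of the 10 genes in each si-METTL16 library, an order that depends on the gene lengths used. In si-NC libraries that place belonged to PCSK1N.

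CHGB (ENSG00000089199, chromosome 20 from 5911430 to 5925361, plus strand) encodes chromogranin B, a main soluble protein of dense-core granules. Its FPKM was 2.31, 2.34 and 2.10 in si-NC and 6.51, 6.57 and 6.18 in si-METTL16 libraries. These groups did not overlap, and the libraries within each group lay close together. CHGB rose at a log2FC of 1.53 (SE 0.09, adjusted p = 1.1e-04 by edgeR). Leaving out any of the 6 libraries kept the call, with log2FCs from 1.48 to 1.56.

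SCG3 (ENSG00000104112, chromosome 15 from 51681353 to 51721031, plus strand) encodes secretogranin III, which holds chromogranin A at the granule membrane. It was a low gene, with 6, 2 and 3 counts in si-NC and 23, 24 and 30 counts in si-METTL16 libraries. Mean FPKM went from 0.0466 ± 0.0270 to 0.329 ± 0.0302 (SD, n = 3 each). SCG3 rose at a log2FC of 2.80 (SE 0.41, adjusted p = 0.0022 by edgeR). It passed the filter on low counts only through the si-METTL16 group, so a difference was built into its being tested. Without si-NC replicate 1, which held 6 of the 11 control counts, the log2FC was 3.34. GENCODE v44 places 2 long noncoding genes on the opposite strand inside SCG3, each with at most 2 counts in any library.

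**Figure D1:**
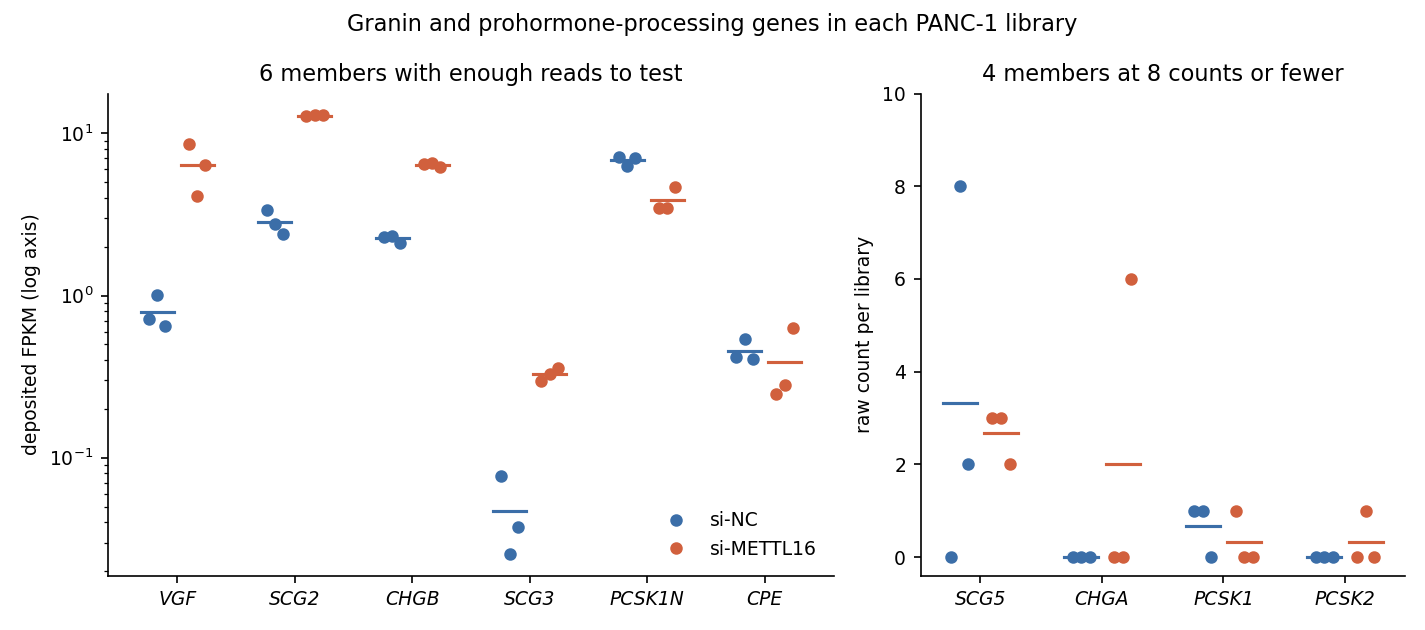
Each point is a library of PANC-1 cells and each bar a group mean, si-NC in blue and si-METTL16 in orange. Left, deposited FPKM on a log axis for the 6 genes with enough reads to test; VGF, SCG2, CHGB and SCG3 lie higher after silencing without overlap, PCSK1N lower without overlap, and CPE overlaps. Right, raw counts of the 4 remaining genes, none above 8.

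Among the genes of the processing step, PCSK1N and CPE could be tested. PCSK1N (ENSG00000102109, chromosome X from 48831094 to 48835633, minus strand) encodes proSAAS, a granin-like inhibitor of PCSK1. Its FPKM was 7.18, 6.25 and 7.05 in si-NC and 3.46, 3.48 and 4.69 in si-METTL16 libraries, with every silenced library below every control. PCSK1N fell at a log2FC of -0.79 (SE 0.16, adjusted p = 0.0088 by edgeR), and the fits without 1 library ranged from -0.95 to -0.72, all past the threshold.

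CPE (ENSG00000109472, chromosome 4 from 165361194 to 165498320, plus strand) had 24, 31 and 24 counts in si-NC and 14, 15 and 39 in si-METTL16 libraries. Replicates 1 and 2 lay below the controls and replicate 3 above them, so the groups overlapped. Its log2FC was -0.20 (SE 0.40, adjusted p = 0.73 by edgeR). Without si-METTL16 replicate 3 it was -0.76 (adjusted p = 0.14), and without si-METTL16 replicate 1 it was 0.034 (adjusted p = 0.96), which turned the direction. The spread of the silenced replicates was thus larger than the group difference.

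The remaining 4 genes did not pass the filter and were not tested. PCSK1, the convertase of the early secretory granule, had 1, 1 and 0 counts in si-NC and 1, 0 and 0 in si-METTL16 libraries. PCSK2, which acts later in granule maturation, had 1 count in si-METTL16 replicate 2 and 0 in the other 5 libraries. A count of 0 at these depths allows a level of up to 0.172 to 0.178 CPM in si-NC and 0.166 to 0.191 CPM in si-METTL16 libraries, counting error only. CHGA, the granin most used as a neuroendocrine marker, had 0 counts in all 3 si-NC libraries and 0, 0 and 6 counts in the si-METTL16 libraries. SCG5, the chaperone of PCSK2, had 0, 8 and 2 counts in si-NC and 3, 3 and 2 in si-METTL16 libraries. In GENCODE v44 the gene ARHGAP11A-SCG5 shares its strand and most of its length, so these few reads may not all belong to SCG5.

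Of the 8 genes not picked for their rise, 4 were tested, with 2 higher (CHGB and SCG3), 1 lower (PCSK1N) and 1 past no threshold (CPE). Of all 15089 tested genes, 35.9% were called (18.4% higher and 17.5% lower), and the si-NC and si-METTL16 CPM did not overlap for 50.9%. The groups did not overlap for the same 3 of the 4 genes. With 4 genes, of which SCG3 was tested only because of its silenced libraries, these counts describe the genes and carry no statement about the set.

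FPKM is scaled per length, and the levels were added as deposited. For VGF, 4.73 CPM stood beside 0.713 FPKM in si-NC replicate 1, so the length used was longer than the span of the gene. Sums, shares, ratios and orders between genes therefore depend on the lengths used and describe the deposited values only. The same gene compared across libraries is not affected. The 8 genes not picked for their rise summed to 9.62 ± 0.367 FPKM in si-NC and 11.1 ± 0.762 FPKM in si-METTL16 libraries (SD, n = 3 each), with ranges of 9.26 to 9.99 and 10.6 to 11.9. Of that sum, PCSK1N held 67.5% to 73.3% in si-NC and 32.5% to 39.2% in si-METTL16 libraries, and CHGB held 21.9% to 25.3% and 51.7% to 61.6%. With VGF and SCG2, whose rise was the reason for their choice and which therefore set most of the difference, all 10 genes summed to 13.2 ± 0.724 FPKM in si-NC cells, as against 30.3 ± 2.28 FPKM in si-METTL16 cells (SD, n = 3 each). In this description the share of PCSK1N went from 51.6% ± 3.85 (SD, n = 3) to 12.8% ± 2.10 (SD, n = 3), and the share of VGF from 5.96% ± 1.52 (SD, n = 3) to 20.7% ± 6.04 (SD, n = 3). SCG2 held 21.3% ± 2.45 before and 42.6% ± 3.43 after silencing (SD, n = 3 each), while CHGB held 17.0% and 21.3%. The ratios between granins, which all involve a gene picked for its rise, are given as a description. The FPKM ratio of SCG2 to CHGB was 1.45, 1.17 and 1.14 in si-NC and 1.97, 1.96 and 2.09 in si-METTL16 libraries, and that of CHGB to VGF was 3.24, 2.33 and 3.26 against 0.757, 1.60 and 0.965. That of SCG2 to VGF was 4.70, 2.74 and 3.72 in si-NC and 1.49, 3.14 and 2.01 in si-METTL16 libraries, where the groups overlapped. Ordered by mean FPKM in si-NC, PCSK1N (6.83) stood first, then SCG2 (2.83) and CHGB (2.25), whose standard deviations of 0.482 and 0.128 leave them close, then VGF (0.787) and CPE (0.455). In si-METTL16 cells the order was SCG2 (12.9), then CHGB (6.42) and VGF (6.37), which did not differ beyond the spread of VGF of 2.24, then PCSK1N (3.88), with CPE (0.387) and SCG3 (0.329) within the spread of CPE of 0.215.

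**Figure D2:**
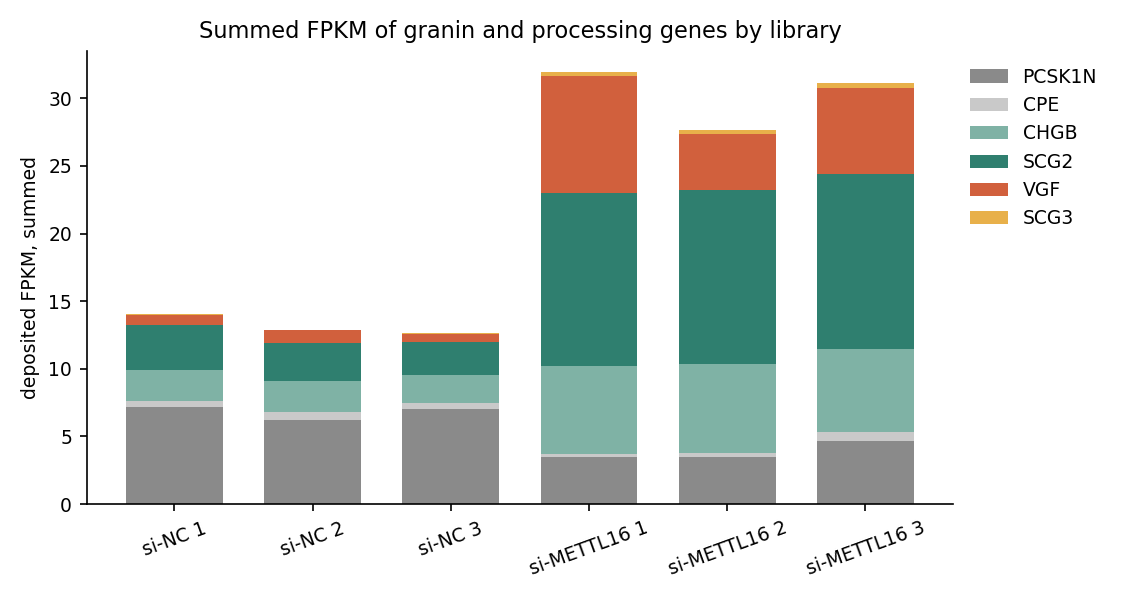
Stacked bars give the deposited FPKM of the 6 tested genes in each of the 6 libraries, summed from 0. The parts of different genes depend on the gene lengths used for FPKM. PCSK1N makes up 48.4% to 55.8% of each si-NC bar, whereas SCG2 and VGF make up most of each si-METTL16 bar; SCG5, CHGA, PCSK1 and PCSK2 are too low to draw.

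To see whether the granins belonged to a wider neuroendocrine programme, 6 lists of other genes were counted in the same fit. Over the union of 225 genes, 48 had 0 counts in every library and 95 were tested. Of the tested ones, 17 were higher (17.9%, beside 18.4% of all tested genes) and 30 lower (31.6%, beside 17.5%), and their median log2FC was -0.13, beside -0.00449 over all tested genes. Of the 85 that reached the filter level in all 6 libraries, 14 were higher and 27 lower. These lists were written with earlier results of these data known.

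Other convertases and trimming enzymes were mostly detected. Of 18 genes, 12 were tested, 1 was higher and 4 were lower (41.7% called, beside 35.9% of all tested genes, median log2FC -0.12). FURIN, the convertase of the constitutive secretory pathway, fell from 41.8 ± 6.21 FPKM (SD, n = 3) to 21.5 ± 1.64 FPKM (SD, n = 3), at a log2FC of -0.94 (SE 0.12, adjusted p = 0.0011 by edgeR). It was far more abundant than PCSK1 and PCSK2 in each group. PCSK6 and CTSL, which encodes the protease cathepsin L, fell with log2FCs of -0.54 and -0.49. MBTPS1 was the further gene called lower, but lost its call without si-NC replicate 1, without si-METTL16 replicate 2 and without si-METTL16 replicate 3. QPCT, which forms N-terminal pyroglutamate on peptides, rose at a log2FC of 0.57 (adjusted p = 0.025 by edgeR). QPCT lost its call without si-NC replicate 1, without si-NC replicate 2 and without si-METTL16 replicate 1, and without si-NC replicate 1 the list had 3 calls, 0 higher and 3 lower. The carboxypeptidase CPD and the amidating enzyme PAM were abundant, and their log2FCs of 0.067 and -0.018 did not pass the threshold.

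Genes of the granule membrane and of exocytosis were more often lower than higher. Of 41 genes, 27 were tested, 4 were higher and 12 lower (59.3% called, beside 35.9% of all tested genes, median log2FC -0.41). The calcium sensor SYT7 fell from 0.978 ± 0.181 to 0.302 ± 0.0457 FPKM (SD, n = 3 each), a log2FC of -1.68 (SE 0.21, adjusted p = 0.0012 by edgeR). RAB26 and RAB27B, small GTPases of secretory vesicles, fell with log2FCs of -1.42 and -0.52. RAB3A (-1.42) had 47 counts over the si-NC and 17 over the si-METTL16 libraries, and it kept its call in 2 of the 6 fits without 1 library, those without si-NC replicate 1 and without si-METTL16 replicate 3. It passed the filter only through the si-NC group. UNC13A, a priming factor of synaptic vesicles, rose at a log2FC of 1.77 (SE 0.29, adjusted p = 0.0035 by edgeR), from 0.303 ± 0.119 to 1.02 ± 0.135 FPKM (SD, n = 3 each). SYT1 was abundant and did not pass the threshold (log2FC -0.11). The other genes called higher were UNC13B, SNAP25 and SYP, named after their values were seen. PTPRN, a receptor-like protein of the dense-core granule membrane, had at most 5 counts in any library, and the exocytosis factor CADPS had 0 in all 6.

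Most transcription factors that drive neuroendocrine cells were too low to test. Of 36 genes, 8 were tested, 2 were higher and 1 was lower (37.5% called, near the 35.9% of all tested genes, median log2FC 0.39). NEUROD1, NEUROG3 and NKX2-2 had 0 counts in all 6 libraries, and INSM1 had 2 counts in si-METTL16 replicate 1 only. SOX2, a stem cell factor, rose at a log2FC of 2.31 (SE 0.48, adjusted p = 0.0089 by edgeR) from 3, 7 and 7 counts to 23, 39 and 20 counts. Like SCG3, it passed the filter on low counts only through the si-METTL16 group. ONECUT2 rose with 0.52, and PROX1 fell with -1.03 on 59 against 28 counts but kept its call in 0 of the 6 fits without 1 library and reached the filter level in 3 si-NC and 1 si-METTL16 library. Among the 4 genes of the list that reached it in all 6 libraries, 1 was called, ONECUT2. FOXA2 and GATA3 were the best expressed, at log2FCs of -0.044 and 0.41 that did not pass the threshold.

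REST represses granin and other neuronal genes outside neurons, together with its corepressors. REST itself had 1288, 1245 and 1262 counts in si-NC and 1039, 1030 and 1213 in si-METTL16 libraries. Its log2FC of -0.17 (SE 0.06, adjusted p = 0.077 by edgeR) did not pass the threshold. All 14 genes of the list were tested, with 1 higher and 6 lower (50% called, beside 35.9% of all tested genes, median log2FC -0.19). BTRC and USP7, named after their values were seen, are in the list but are not corepressors. BTRC was called lower (log2FC -0.24, adjusted p = 0.036 by edgeR), and USP7 did not pass the threshold (0.11). BTRC lost its call without si-NC replicate 1, without si-NC replicate 2 and without si-METTL16 replicate 3. The phosphatase CTDSP1 fell at a log2FC of -0.74 (SE 0.08, adjusted p = 5.6e-04 by edgeR) and the deacetylase HDAC2 with -0.49, while the deacetylase HDAC1 rose with 0.64 (SE 0.07, adjusted p = 7.7e-04 by edgeR). The corepressors RCOR2 (-0.75) and SIN3B (-0.53) each kept their call in 2 of the 6 fits without 1 library. The 7 calls of the list became 3 without si-NC replicate 1, without si-NC replicate 2 or without si-METTL16 replicate 3.

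Markers of neuroendocrine and neuronal cells had no common direction. Of 46 genes, 19 were tested, 4 were higher and 3 lower (36.8% called, near the 35.9% of all tested genes, median log2FC -0.11). Among the defining markers of neuroendocrine cells, CHGA and INSM1 were near 0. Synaptophysin (SYP), counted above with the granule and exocytosis genes, rose at a log2FC of 0.65 (SE 0.10, adjusted p = 0.0024 by edgeR), with 258, 244 and 251 counts in si-NC and 397, 329 and 425 in si-METTL16 libraries. Neuron-specific enolase (ENO2) had a log2FC of 0.34 (adjusted p = 0.060) and the adhesion molecule NCAM1 one of -0.88 (adjusted p = 0.084), neither past the threshold, although NCAM1 was called lower without si-METTL16 replicate 3. STMN3, a tubulin-binding stathmin, rose with 0.99 (SE 0.11, adjusted p = 6.3e-04 by edgeR), and the kinesin KIF1A and the somatostatin receptor SSTR5 fell with -0.63 and -1.14. SYN1 and RUNDC3A were called higher at 0.81 and 0.87, and each kept its call in 1 of the 6 fits without 1 library. The sodium channel gene SCN8A, named after its values were seen, was the remaining gene of the list called higher (0.67, adjusted p = 0.0125 by edgeR). L1CAM, among the best expressed, had a log2FC of 0.20 (adjusted p = 0.052 by edgeR) and was called higher without si-METTL16 replicate 2.

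Most genes for cargo prohormones were too low to test. Of 70 genes, 25 had 0 counts throughout and 15 were tested. Of these 15, 5 were higher and 4 lower (60% called, beside 35.9% of all tested genes, median log2FC -0.11). The islet hormones INS, GCG and PPY had at most 1 count in any library. EDN1, which encodes endothelin, rose from 43.2 ± 3.63 to 64.2 ± 1.42 FPKM (SD, n = 3 each), a log2FC of 0.59 (SE 0.08, adjusted p = 0.0012 by edgeR). NPPC, the C-type natriuretic peptide gene, rose with 1.84 (SE 0.32, adjusted p = 0.0047 by edgeR) on 29 against 102 counts, and UCN2 with 1.23 on 20 against 46 counts, the latter called in 1 of the 6 fits without 1 library. NXPH4 fell with -1.31, and APLN with -2.12 on 55 against 12 counts. APLN lost its call without si-NC replicate 3, without si-METTL16 replicate 1 and without si-METTL16 replicate 2. UCN2 passed the filter only through the si-METTL16 group and APLN only through the si-NC group, while NPPC reached the filter level in 2 si-NC and 3 si-METTL16 libraries, so a difference was built into their being tested. Among the 11 genes of the list that reached it in all 6 libraries, 3 were higher and 3 lower. STC2, the best expressed, had a log2FC of -0.14 that did not pass the threshold. BDNF, a neurotrophin under which VGF is known to be induced in neurons, rose with 0.65 (SE 0.13, adjusted p = 0.0068 by edgeR), and ADM, the adrenomedullin gene, with 1.18 (adjusted p = 1.2e-04 by edgeR), both named after their values were seen.

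**Figure D3:**
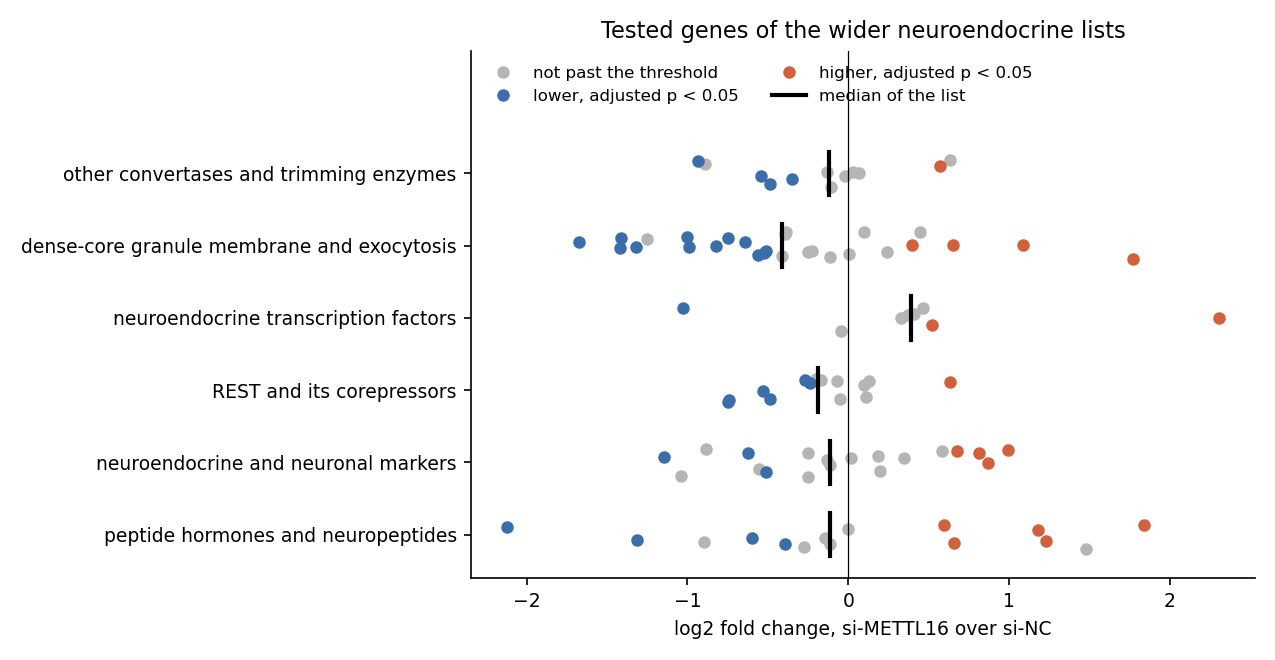
Each point is a tested gene of 1 of the 6 wider lists, placed by its log2FC (si-METTL16 over si-NC) and coloured by its call, with vertical scatter added for visibility only. Blue points outnumber orange ones for granule membrane and exocytosis genes (12 against 4) and for other convertases (4 against 1). They also do so for the list of REST and its corepressors (6 against 1), a count that fell in some fits without 1 library. Orange points outnumber blue ones in the remaining lists. Of all tested genes, 17.5% were lower and 18.4% higher. The black bars mark list medians from -0.41 to 0.39.

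Markers of other pancreatic and stromal cells were checked beside these lists. The share to set beside their counts is 18.4% higher and 17.5% lower of all tested genes. Of 14 acinar markers, 0 were tested, and their summed level was 0.101 to 0.242 FPKM in si-NC and 0.0965 to 0.177 FPKM in si-METTL16 libraries. Of 12 islet markers, only HHEX was tested, a transcription factor gene that rose at a log2FC of 1.24 (adjusted p = 3.9e-04 by edgeR), and 5 had 0 counts throughout, GCG among them. It carried most of the summed level of that list, 2.06 to 2.21 FPKM in si-NC and 4.14 to 4.71 FPKM in si-METTL16 libraries. Among 11 fibroblast and endothelial markers, COL1A1 and COL3A1 were tested and higher (1.27 and 0.69), so the sum went from 26.0 to 30.2 FPKM up to 62.5 to 66.3 FPKM, while the fibroblast genes COL1A2 and DCN had 2 and 3 counts over all libraries. Of 7 leukocyte markers, 2 were tested and CD68, a lysosomal protein gene, was higher (0.67), while CD3E and NKG7 had 0 counts, with a summed level of 1.35 to 1.42 FPKM in si-NC and 1.75 to 2.05 FPKM in si-METTL16 libraries. Of 12 ductal markers, 8 were tested and 4 were lower, KRT19 at -1.40, CDH1 at -1.09, KRT7 at -0.84 and SOX9 at -0.25, with a summed level of 354 to 455 FPKM in si-NC and 361 to 402 FPKM in si-METTL16 libraries. The part of these shifts in the granin values was not tested.

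**Figure D4:**
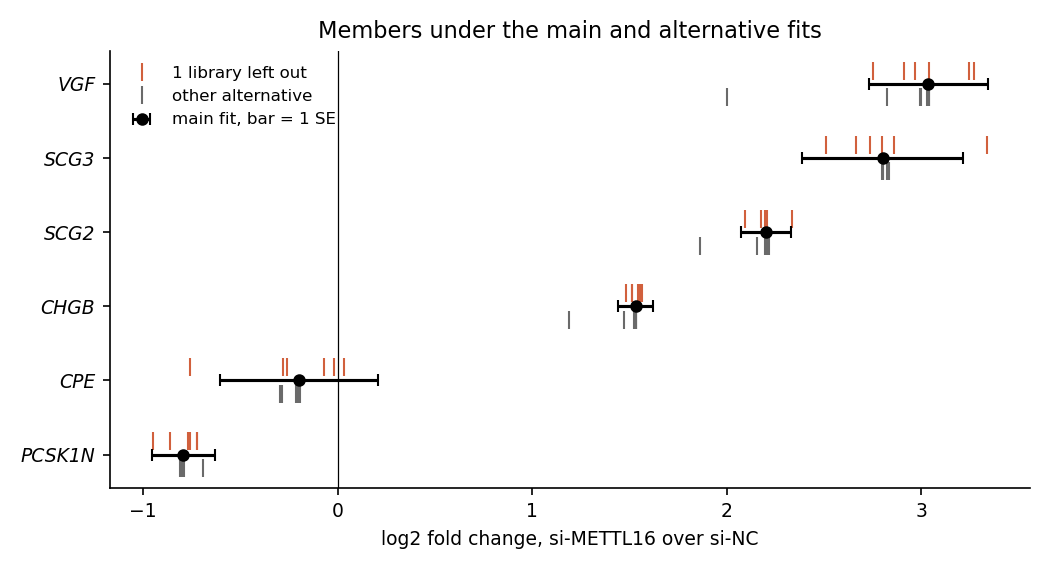
Black points give the fitted log2FC (si-METTL16 over si-NC) of the 6 tested genes with bars of 1 standard error, orange ticks the 6 fits that each left out a library, and grey ticks the other alternatives. VGF, SCG3, SCG2 and CHGB stay above 0 and PCSK1N below 0 throughout, while the ticks of CPE reach from -0.76 to 0.034. VGF and SCG2 were picked for their rise and SCG3 was tested only because of its silenced libraries, so their place is a description.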

How the data were processed

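RNA-seq counts of 6 PANC-1 libraries were used, 3 si-NC and 3 si-METTL16, grouped by their titles. The deposited table of the authors holds raw gene counts and FPKM values, the latter scaled by gene length and library total. The submitters' processing notes name HISAT2 2.0.4, StringTie 1.3.0 and GRCh38, and the use of strand was not given in the sources used here. Counts were TMM-scaled, filtered with filterByExpr (minimum count 10, minimum total 15) and compared across all 15089 remaining genes with the quasi-likelihood F test of edgeR 4.0.16 (R 4.3.3), taking Benjamini-Hochberg adjusted p-values under 0.05 as calls. Raw counts were deposited, so this test was used in place of the limma of the methods, which was run as an alternative (limma 3.58.1), as was DESeq2 1.42.0. Standard errors were derived from the F statistic. No pair of replicates was a duplicate (chi-square per degree of freedom at least 15.9). The common biological coefficient of variation was 16.5%.

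The members and lists were chosen with earlier results of these data known. In each wider list, the text names the 4 called genes with the largest change and the 2 best expressed; others are said to be chosen later or are members or fixed markers. Promoter windows came from RefSeq and overlaps from GENCODE v44. The fit was tested on simulated data for this comparison (15089 genes, 200 changed). There, 73 of 100 genes changed by 1 on the log2 scale and 92 of 100 changed by 2 were recovered. It also called 22 unchanged genes, a larger share of the simulated calls than the threshold of 0.05. Far fewer genes were changed in the simulation than the 5418 called in the data, so these rates do not carry over.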

Additional observations from a re-analysis of the deposited data

How the results depend on the processing

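The directions of VGF, SCG2, SCG3, CHGB and PCSK1N, and the calls of SCG3, CHGB and PCSK1N, held in each alternative in which the gene was tested. These alternatives reuse the same 6 libraries. For VGF and SCG2, picked for their rise, and SCG3, tested only because of its silenced libraries, they add no support. VGF ranged from 2.75 to 3.27 and SCG2 from 2.09 to 2.34 in the fits without 1 library. On log2(FPKM + 1), where low values are compressed, they were 2.00 and 1.86. CPE ranged from -0.76 to 0.034 in such fits and turned to 0.034 without si-METTL16 replicate 1. SCG3 was not tested with at least 10 counts in every sample or on FPKM, where genes needed a mean of at least 1. Same-numbered deviations from the group means correlated at only 0.0253 to 0.0371, yet each sample correlated best with its own number. With 3 replicates a group, such low values cannot decide whether the replicate numbers pair the samples. With the replicate block 5013 genes were called instead of 5418, of which 4731 were called in each fit, and the calls of REST and its corepressors went from 7 to 4. Of the named genes, RAB3A, PROX1, RCOR2, BTRC, RUNDC3A, SYN1 and UCN2 lost their call under the block, and NCAM1 and AP1S1 gained one. That list had 3 to 5 calls without 1 library and 3 without a filter on low counts. The convertase list had 3 to 5 calls without 1 library. Limma on log2(FPKM + 0.1) gave 10 calls for granule membrane and exocytosis genes, from 16 genes tested. The transcription factor list had 1 call with at least 10 counts in every sample. It had 0 calls by limma on either FPKM scale, with 0 of 2 genes tested under an unadjusted p of 0.05, against 3 by edgeR. Limma on either FPKM scale gave 3 calls for neuroendocrine and neuronal markers, from 11 genes tested. Genes under about 10 counts a library, CHGA, SCG5, PCSK1 and PCSK2 among them, were limited by depth.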

Other observations

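The genes whose log2 CPM over the 6 libraries, relative to each gene's si-NC mean, lay nearest to VGF were RRM2, MYC and SCG2, at root mean square distances of 0.433, 0.547 and 0.663. RRM2 belongs to the ribonucleotide reductase complex and MYC is a growth-promoting transcription factor. MYC had 82.5, 72.4 and 56.2 CPM in si-METTL16 replicates 1, 2 and 3, where VGF had 58.2, 27.6 and 42.9 CPM. The genes nearest to SCG2 were UBE2C, EREG and OGFR, at distances of 0.230, 0.231 and 0.250. EREG, which encodes the growth factor epiregulin, went from 31.2 to 131 mean CPM. With 6 libraries in 2 groups, these distances mainly reflect a like difference between the groups.

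Of the nearest tested genes on either side of VGF and SCG2, none was called higher by edgeR. AP1S1, which encodes a clathrin adaptor subunit and ends 913 bases from VGF in the deposited table, had a mean of 66.4 ± 10.0 CPM in si-NC against 43.5 ± 16.9 CPM after silencing (SD, n = 3 each) (log2FC -0.61, adjusted p = 0.13 by edgeR). AP1S1 was called lower without si-METTL16 replicate 2. PLOD3, a collagen lysyl hydroxylase gene 40384 bases from VGF on the other side, had a log2FC of -0.036 (adjusted p = 0.81 by edgeR). On either side of SCG2, ACSL3, a fatty acid activating enzyme gene 652301 bases away, fell at a log2FC of -0.55 (SE 0.08, adjusted p = 0.0020 by edgeR), and AP1S3, a clathrin adaptor subunit gene 149183 bases away, had 0.042 (adjusted p = 0.75 by edgeR).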
